A study of Acipenser ruthenus with 15 samples.

Results

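The transcripts described here were highest in section D, the subvegetal slice, in sterlet eggs cut into 5 slices from the animal to the vegetal pole. Of 42878 assembled transcripts, 42 met the rule. They were chosen by their measured levels in these same libraries. The rule asked for a mean over the 15 libraries of at least 5 and below 600 CPM (a count as a rate of its library's total, after scaling between libraries by the TMM method of edgeR), for section D to be the highest of the 5 sections in each of the 3 eggs, for at least 0.25 of the summed section means to lie in D, and for more than 0.15 to lie in A and B together. The sterlet, Acipenser ruthenus, is a small sturgeon. Each of 3 eggs, labelled as oocytes of stage 1 and numbered 10, 18 and 20, gave 1 library from each of sections A (animal pole), B, C, D and E (vegetal pole), so each section holds n = 3. No treatment or genotype is labelled. Whether the eggs share a mother is not stated, so spreads and p-values cover these 3 eggs and no wider group.

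A vertebrate egg stores RNA from the mother, and part of that RNA is placed unevenly along the animal-vegetal axis. In the frog Xenopus, RNAs held at the vegetal cortex include components of the germ plasm, which the germ cells inherit, and factors that direct the formation of endoderm and mesoderm. Sturgeon eggs, like those of frogs, cleave through the whole egg, so RNA placed in the subvegetal cytoplasm comes to lie in vegetal blastomeres.

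None of the transcript IDs matched the annotated sterlet genes, so what the 42 transcripts encode, their sequences and any marker list for eggs or follicle cells were not analysed here. Library totals ran from 4347026 to 14500611 counts. A TMM-scaled level is a share of what its library holds, so by itself it cannot tell more of a transcript from less of the others in a section. The files also list a spike-in line, and with it as scaling most of the 42 were not highest in D, as given below.

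Few transcripts of this level were highest in D in every egg. Of 17167 transcripts at 5 to 600 CPM, 147 had D highest in 3 of 3 eggs, 56 of these reached the share limit in D, and 14 of the 56 were set aside by the limit on A plus B. The same requirement of rank and share, without the limit on A plus B, was met by 1382 transcripts for section A, 110 for B, 60 for C and 1377 for E. The transcripts were of modest level, with a mean CPM from 5.01 to 80.4 and a median of 11.5, against a median of 23.3 for all transcripts at 5 to 600 CPM. Of the 42, 31 had IDs of the DN form, which Trinity gives to de novo assemblies (73.8%, against 72.7% at 5 to 600 CPM), and the other 11 had the GG form of genome-guided assembly. They belong to 41 Trinity genes. The 14 that the limit on A plus B set aside lay further to the vegetal side, with a median of 37.9% of their summed level in D and 8.48% in A and B together. The limit itself fixed their low share in A and B.

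The typical profile was low in A and B, higher in C, highest in D and slightly lower in E. The median share of a transcript's summed section means was 12.5% for section A and 12.8% for B. It was 20.5% for C, 28.7% for D and 24.1% for E. Over all transcripts at 5 to 600 CPM the median share lay between 19.7 and 20.03% in every section. The rule used these levels, so they are a description with no test. Summed over the 42 transcripts, the level went from 555 ± 90.1 CPM in A (SD, n = 3) through 579 ± 43.6 for B and 984 ± 102 for C to 1359.6 ± 43 for D. Section E stood at 1201 ± 46.1 CPM. The D values of the eggs were 1322 to 1407 CPM and the E values 1149.8 to 1239.7 CPM, where the rule itself sets D above E in each egg. At the lower limit of the share, trinitytrinLocGG_68582c0g2t1 had 25.07% of its level in D, with 13.2 ± 3.64 CPM there and 11.1 ± 2.53 in E. Just outside it, trinitytrinLocDN53232c0g1t2 had 24.96%, with 8.80 ± 1.32 CPM in D and 7.95 ± 1.07 in E.

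**Figure D1:**
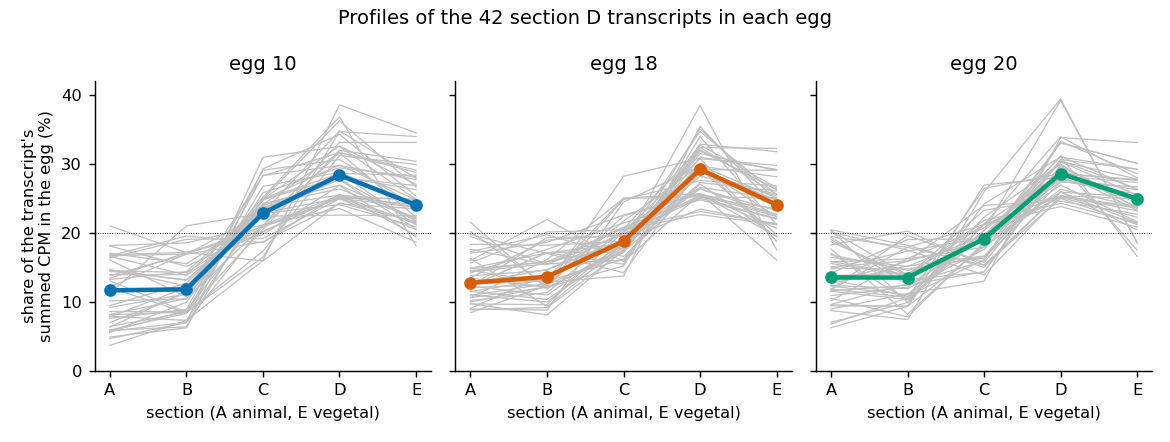
Share of each transcript's summed CPM in the egg (%, vertical axis) by section (horizontal axis), 1 panel per egg. Grey lines are the 42 transcripts, the coloured line is their median, and the dotted line marks an even share. The medians are low in A and B and, as the rule requires, highest in D in each panel. Section C of egg 10 lies closer to D than section C of the other eggs.

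Section E was the nearest to D. It held the second highest mean for 38 of the 42 transcripts and section C for the other 4. The ratio of the D mean to the next section's mean was 1.04 to 1.41, with a median of 1.13. It was at least 1.2 for 13 transcripts and under 1.1 for 14. For most transcripts the step from D down to E was therefore smaller than the step up to D from C, as the median log2 differences show, -0.21 for E minus D against 0.46 for D minus C (log2 of CPM plus 0.5).

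The highest ratio of D to the next section belonged to trinitytrinLocDN52896c3g3t1. In eggs 10, 18 and 20 it stood at 10.8, 10.7 and 10.2 CPM in section D, and at 7.41, 9.83 and 5.27 CPM in C. In section E it stood at 5.33, 6.55 and 4.83 CPM, in B at 3.55, 4.27 and 2.68, and in A at 2.30, 3.48 and 2.99. Its D values lay within 1 CPM of each other and above every value in C and E, although section C of egg 18 came close. Its mean of 10.6 ± 0.356 CPM in D was 1.41 times the 7.50 ± 2.28 CPM in C. It was 1 of the 4 transcripts with C as the nearest section.

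trinitytrinLocDN49660c0g1t1 had the next highest ratio and a different shape. It stood at 9.76, 9.12 and 8.56 CPM in section D of eggs 10, 18 and 20, at 8.03, 5.41 and 6.36 in C and at 7.64, 5.70 and 4.99 in E. In section A it stood at 5.13, 6.54 and 5.80 CPM, and in B at 4.61, 3.61 and 2.83. The D values were above all others, while the values in A overlapped those in C and E, so that its lowest section was B and not the animal pole. The D mean of 9.15 ± 0.601 CPM was 1.39 times the 6.60 ± 1.32 CPM of C.

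The most abundant was trinitytrinLocDN29102c0g1t1, whose level depended on the egg. Egg 10 held 6.55, 6.63, 7.33, 9.49 and 9.21 CPM in sections A to E. Egg 18 held 71.4, 82.8, 155, 157 and 156 CPM, and egg 20 held 89.5, 82.4, 107, 137 and 129 CPM. Its mean over the sections was 15.9 times as high in the highest egg, 18, as in egg 10. D was the highest section in each, as the rule requires. The margin was narrow, 1.04 times the mean in E, the lowest ratio of the 42. The next most abundant, trinitytrinLocDN55171c1g1t2, stood at 152, 105 and 113 CPM in D, 126, 77.2 and 106 in E and 116, 56.7 and 109 in C of eggs 10, 18 and 20. In B it stood at 46.4, 30.0 and 37.9 CPM and in A at 26.0, 33.3 and 38.1. The values of C, D and E overlapped between eggs, whereas all of them lay above those of A and B.

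**Figure D2:**
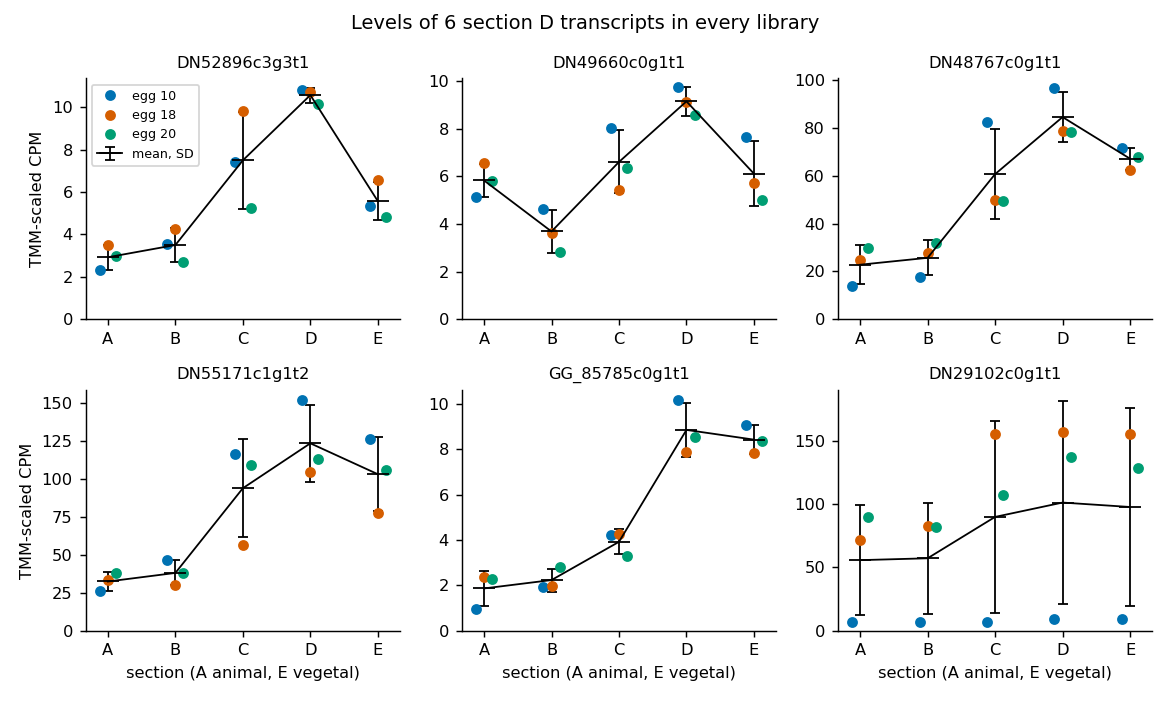
TMM-scaled CPM (vertical axis) by section (horizontal axis) for 6 of the 42 transcripts, with 1 point per library coloured by egg and the mean ± SD of the 3 eggs in black. Titles are the IDs without their common start. Section D is highest in every egg of each panel, as the rule requires. Egg 10 lies near 0 for DN29102c0g1t1, at 6.55 to 9.49 CPM against 71.4 to 157 in the other eggs.

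Differences between eggs were wider than usual for some of the 42. The ratio of the highest to the lowest egg mean had a median of 1.34, against 1.26 at 5 to 600 CPM. It was at least 2 for 8 of 42 transcripts (19.0%), against 7.24% at 5 to 600 CPM. The 8 include trinitytrinLocDN47769c7g2t1 (2.06) and trinitytrinLocDN47769c7g2t3 (2.02), variants of 1 Trinity gene. The 42 were also of lower level, with a median mean CPM of 11.5 against 23.3 at 5 to 600 CPM. Egg 10 was the highest for 26 transcripts, egg 18 for 11 and egg 20 for 5. The same split over all transcripts at 5 to 600 CPM was not counted, so it is not read as a trait of the 42. In section D alone the coefficient of variation over eggs had a median of 16.3%, against 16.8% at 5 to 600 CPM.

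A pair of the transcripts, trinitytrinLocDN47769c7g2t1 and trinitytrinLocDN47769c7g2t3, are variants of 1 Trinity gene, and they were singled out after their values were seen. In section D the first stood at 14.3, 6.91 and 18.0 CPM in eggs 10, 18 and 20 and the second at 12.04, 12.5 and 18.7. In section E the values were 11.9, 6.55 and 8.46 CPM for the first and 8.85, 5.70 and 18.1 for the second. The mean of D was 33.5% of the summed level for the first and 33.0% for the second, and 33.2% for their sum. Reads shared by the variants may have been divided between them, so they are not independent and their separate levels are uncertain. The other 40 Trinity genes have 1 listed transcript each.

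The counts behind the D values were modest. A library of section D held 52 to 2137 counts of a transcript, with a median of 154. Over the libraries of all sections the counts were 11 to 2137, with a median of 107. In single eggs the ratio of D to the highest other section ran from 1.0006 to 2.09, with a median of 1.11. The rule placed every one of these ratios above 1, so they describe the transcripts chosen and do not measure how firmly D exceeds its neighbour. trinitytrinLocDN48767c0g1t1, named after its values were seen, shows the profile at a higher level. It stood at 96.7, 78.8 and 78.4 CPM in section D of eggs 10, 18 and 20, at 71.5, 62.3 and 67.8 in E and at 82.6, 50.02 and 49.6 in C. In B it stood at 17.6, 27.6 and 31.9 CPM and in A at 13.8, 24.8 and 29.8. The D and C values overlapped between eggs, and those of A and B lay below all values of C, D and E.

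Section D was again the highest section in an egg that had no part in the choice for a minority of transcripts. When the rule was applied to eggs 18 and 20 alone, 139 transcripts met it, and D was highest in egg 10 for 46 of them (33.1%), against 11.5% of all transcripts at the same level. With egg 18 left out, D was highest there for 56 of 166 (33.7%), against 15.1%. With egg 20 left out it was highest there for 42 of 172 (24.4%), against 16.8%. Section E was highest in the left-out egg more often than D, for 65, 76 and 73 of these transcripts in eggs 10, 18 and 20, or 46.8%, 45.8% and 42.4%, against 28.9%, 24.4% and 24.8% of all transcripts at the same level. In egg 20 section C was highest for 43, 1 more than D. The median share in D in the left-out egg was 23.2%, 23.8% and 21.7%, against 19.6%, 20.02% and 19.8% over all transcripts at the same level. A choice by rank and share alone gave, in the left-out egg, the same highest section for 63.4 to 89.8% of transcripts chosen for A and 80.9 to 86.0% of those chosen for E. It gave 33.9 to 51.2% for B, 21.4 to 53.8% for C and 26.3 to 39.2% for D. Over all transcripts at the same level, A was highest for 26.5 to 32.2% and E for 24.4 to 28.9%. B was highest for 14.4 to 17.9%, C for 12.9 to 14.01% and D for 11.5 to 16.8%, so A and E start from a higher background. These counts are a description with no test, since the transcripts of a library share its depth and scaling.

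**Figure D3:**
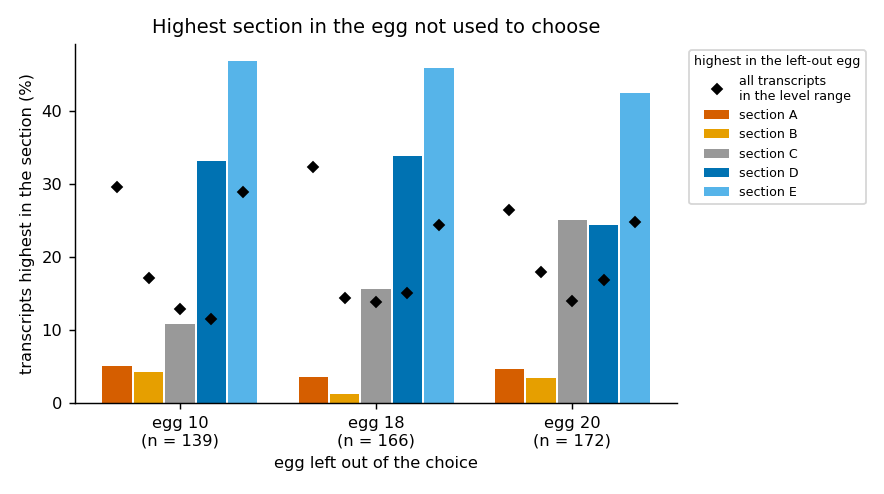
Percent of transcripts (vertical axis) whose highest section in the egg left out of the choice was A, B, C, D or E (coloured bars), for transcripts that met the rule in the other eggs, with n under each egg. Black diamonds give the same percent over all transcripts of that level. The D bars reach 33.1, 33.7 and 24.4%, above their diamonds, and the E bars are the highest, at 46.8, 45.8 and 42.4%.

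Most of the 42 transcripts were also higher at the vegetal than at the animal pole. The rule set A, B and E each below D in every egg and limited the sum of A and B from below. It did not use the order of E and A. Both levels also entered it through the share in D, so the comparison is not fully independent of the choice. Of the 42, 31 were called higher in E and 0 in A at an adjusted p under 0.05, by the quasi-likelihood F test of edgeR with Benjamini-Hochberg adjustment over 29102 transcripts. Each of the 31 had the same direction in 3 of 3 eggs. Over all transcripts tested, 35.1% were called, with E the higher for 17.2% and A for 17.8%. At 5 to 600 CPM 45.4% were called, 22.1% higher in E and 23.2% higher in A. The median log2 change from A to E was 0.97 for the 42, against -0.03 over all tested. An unadjusted p under 0.05 was found for 35, and its share over all tested was not counted. The count depended on the scaling of the libraries. With the spike-in as scaling 18 were higher in E (42.9%, against 6.72% of all tested). With the factor of the deposited normalized values 20 were higher in E (47.6%, against 7.44%) and 2 in A (4.76%, against 54.9%). Under these scalings the median over all transcripts moved to -0.53 and -0.61, and that of the 42 to 0.47 and 0.39.

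The widest change from A to E among the 42 was that of trinitytrinLocGG_85785c0g1t1. It stood at 0.974, 2.37 and 2.27 CPM in section A of eggs 10, 18 and 20, at 1.92, 1.97 and 2.83 in B and at 4.21, 4.27 and 3.29 in C. In D it stood at 10.2, 7.87 and 8.56 CPM and in E at 9.09, 7.84 and 8.38. Its values formed a low group in A, B and C and a high group in D and E that did not overlap. It was 4.51-fold higher in E than in A, with a log2 change of 2.21 ± 0.27 (SE) and an adjusted p of 5.64e-06 in edgeR with Benjamini-Hochberg adjustment. Its ratio of D to E was only 1.05. The values in A rest on few counts, 11, 17 and 25 in eggs 10, 18 and 20.

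trinitytrinLocGG_56658c1g1t1 followed, with 8.50, 7.93 and 6.801 CPM in section A and 39.8, 25.2 and 31.8 in E of eggs 10, 18 and 20. It stood at 11.9, 11.6 and 10.2 CPM in B, 40.6, 23.4 and 26.3 in C and 42.7, 26.0 and 33.7 in D. Sections C, D and E overlapped, and all lay above A and B, so its profile was close to a plateau that begins in C. It was 4.17-fold higher in E than in A, with a log2 change of 2.06 ± 0.16 (SE) and an adjusted p of 2.06e-08 in edgeR with Benjamini-Hochberg adjustment.

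The 11 transcripts not called between E and A had flatter profiles. Their log2 change from A to E was 0.06 to 0.55, their share in A and B together had a median of 32.7% against 22.3% for the 31 called, and their share in D had a median of 25.8% against 30.5%. Their ratio of D to the next section was nonetheless 1.12 to 1.39, with a median of 1.25 against 1.12 for the 31. Their mean CPM was 5.37 to 14.7, so their counts were low. The A-to-E call split the transcripts after their values were known, so these medians are not tested.

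**Figure D4:**
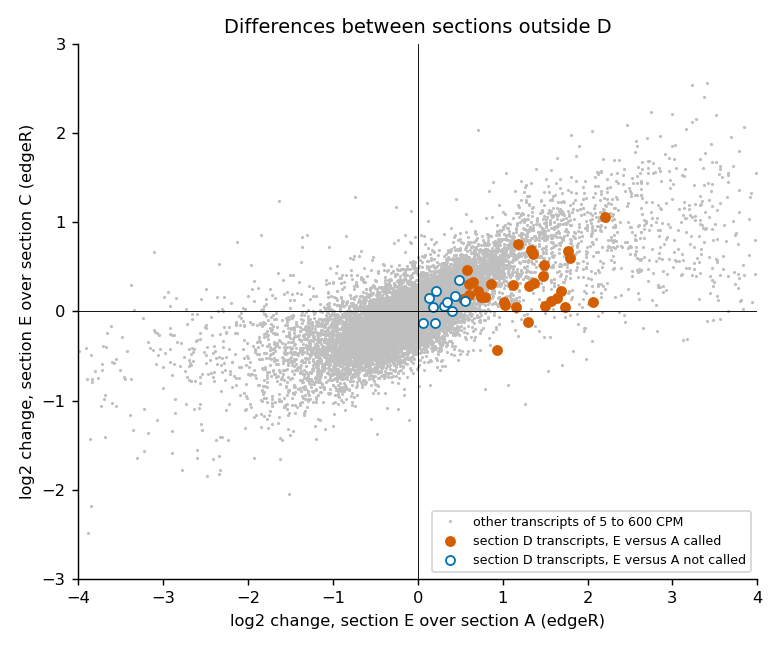
Log2 change of section E over section C (vertical axis) against that of E over A (horizontal axis), from edgeR. Grey points are other transcripts at 5 to 600 CPM (183 lie beyond the axes), filled points the 31 section D transcripts called between E and A, and open points the 11 not called. All 42 lie right of 0 on the horizontal axis, between 0.06 and 2.21, and most lie near 0 on the vertical one.

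Between the neighbours of D, sections E and C, the share called in either direction was near that of other transcripts of the same level. The rule asked that both be below D, and their levels also entered the share in D. Of the 42, 6 were higher in E (14.3%) and 0 higher in C, by the same edgeR test with Benjamini-Hochberg adjustment. Over all transcripts tested 9.81% were called, 6.53% higher in E and 3.28% higher in C. At 5 to 600 CPM 14.2% were called, 9.21% higher in E and 4.99% higher in C. The 14.3% of the 42 is thus near the background for either direction. All 6 calls were higher in E, where the matching background is 9.21%, and 6 calls are too few to read a difference from. The median log2 change from C to E was 0.17, against 0.00 (0.0035) over all tested, and 19 transcripts (45.2%) had E above C in 3 of 3 eggs, while 1 (2.38%) had C above E in all of them. At 5 to 600 CPM these shares were 27.2% and 25.01%. The 6 had a ratio of D to E between 1.05 and 1.099, so their levels in D and E were close. The count among the 42 was 0 without egg 18, without egg 20 or without section C of egg 20, 1 without section E of egg 10, 2 without section C of egg 18 and 1 without the egg as a block. Over all transcripts tested, 2855 of 29102 were called as reported, but 1564 of 29936 without egg 18 and 1023 of 29696 without egg 20. Without section C of egg 20 it was 1517 of 30518, and without section E of egg 10 it was 2006 of 30062. Section C of egg 18 left out gave 2784 of 30613, and no block gave 766 of 29102. With the deposited factor 26 of the 42 were called (61.9%), all of them higher in C, as were 61.5% of all transcripts tested, whose median log2 change moved to -0.68. With the spike-in 1 was called (2.38%), higher in C, against 11% of all tested.

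Among the 6, trinitytrinLocGG_85785c0g1t1 had the widest change, with a log2 change from C to E of 1.06 ± 0.25 (SE) and an adjusted p of 0.0113 in edgeR with Benjamini-Hochberg adjustment. trinitytrinLocDN52025c0g2t3 followed, at 11.2, 5.13 and 6.93 CPM in section E of eggs 10, 18 and 20 against 6.47, 2.85 and 4.39 in C, where the eggs overlap but each egg has E above C. It stood at 11.6, 5.15 and 7.57 CPM in D, 3.17, 2.30 and 2.97 in B and 4.87, 2.23 and 3.08 in A. Its log2 change from C to E was 0.75 ± 0.19 (SE), with an adjusted p of 0.0189 in edgeR with Benjamini-Hochberg adjustment. Over the alternatives tried, the adjusted p in edgeR or DESeq2 ran from 0.0014 to 0.197 for the former and from 0.0112 to 0.779 for the latter, and each lost its call under several of them.

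Between sections B and A no difference was called. There 0 of the 42 were called by the same edgeR test with Benjamini-Hochberg adjustment, 5 had an unadjusted p under 0.05, and DESeq2 called 0 as well. The share of all transcripts tested with such an unadjusted p was not counted. Over all transcripts tested 3.37% were called, 0.715% higher in B and 2.65% higher in A. At 5 to 600 CPM 4.92% were called, 1.12% higher in B and 3.8% higher in A, so a count of 0 among 42 is near that background and says little of the 42. The median log2 change from A to B was 0.07. B was above A in 3 of 3 eggs for 11 transcripts (26.2%) and A above B for 3 (7.14%), against 17.1% and 17.9% at 5 to 600 CPM. trinitytrinLocDN49660c0g1t1, described above as lowest in B, was 1.58 times as high in A as in B, with A above B in 3 of 3 eggs, and its adjusted p was 0.139 in edgeR with Benjamini-Hochberg adjustment. With the deposited factor, which is lowest in B, 10 were called (23.8%), all higher in B, as were 18.1% of all transcripts tested.

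The place of the main step along the axis differed between eggs. The median log2 difference of C minus B over the 42 was 0.92 in egg 10, 0.39 in egg 18 and 0.46 in egg 20, while that of D minus C was 0.26, 0.61 and 0.63. In egg 10 most of the difference thus lay between B and C, and in eggs 18 and 20 more of it lay between C and D. Section C was the nearest to D for 18 of the 42 in egg 10, for 5 in egg 18 and for 9 in egg 20. The 3770 other transcripts at 5 to 600 CPM that were called higher in E than in A had medians of 0.29, 0.30 and 0.26 for C minus B and of 0.17, 0.21 and 0.31 for D minus C in these eggs. Of those 3770, 82.7% had their highest mean in E and 13.6% in D. The difference between eggs was not tested, since each egg is a single sample.

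The peak in D depended on how the libraries were scaled. A spike-in line that the files list beside the transcripts had a TMM-scaled level of 229 ± 21.4 CPM in the D libraries (SD, n = 3) and of 200.04 ± 36.5 CPM in those of E. Its level was 139 ± 25.2 CPM for section A, 119 ± 10.5 for B and 147 ± 19.1 for C. It was highest in D in 3 of 3 eggs, with 0.274 of its summed level in D, 0.31 in A and B together and a mean of 167 CPM, and so met every clause of the rule that left it out. The factor that divides the counts to give the deposited normalized values, relative to the TMM size, was 0.915 for section A, 0.745 for B and 0.851 for C. It was 1.12 for D and 1.37 for E. With the spike-in as scaling, 0 transcripts of the series met the rule, and the highest mean of the 42 lay in C for 25, in B for 9, in E for 7 and in D for 1. With the deposited factor it lay in D for 25, in C for 11 and in B for 6, and 54 transcripts met the rule, 7 of them among the 42. With DESeq2 size factors or total counts D kept the highest mean for all 42, and 39 and 28 of them met the rule. The part of the amount of RNA per section in these differences was not tested.

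**Figure D5:**
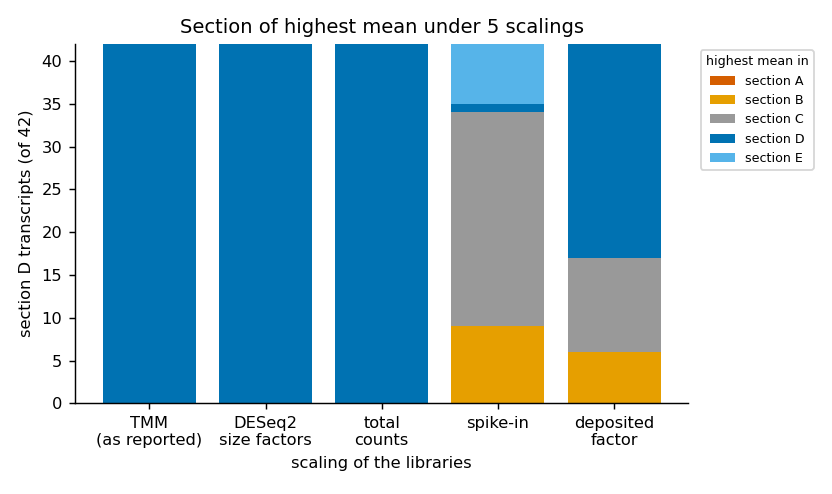
Number of the 42 transcripts (vertical axis) by the section of their highest mean, under 5 ways of scaling the libraries (horizontal axis). All 42 are highest in D with TMM, which the rule used, and with DESeq2 size factors and total counts, against 1 with the spike-in and 25 with the deposited factor.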

How the data were processed

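RNA of 15 egg sections was depleted of ribosomal RNA and sequenced from strand-specific libraries, per the labels' protocols. The authors deposited whole-number counts per assembled transcript, and a normalized signal that equals those deposited counts divided by 1 factor per library. Per the submitters' processing notes, kallisto, STAR 2.5.2b, Trimmomatic and DESeq2 were used, with no role stated, and no source names the assembly's settings. The transcripts and tests were chosen with earlier results of these data known.

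CPM were computed from the counts, without the spike-in line (0.0115 to 0.0235% of counts), with TMM over all transcripts in edgeR 4.0.16 under R 4.3.3. Sections were compared by edgeR's quasi-likelihood test with section and egg as additive terms over 15 libraries (8 residual degrees of freedom) on 29102 transcripts kept by filterByExpr, which included the 42. p-values were adjusted by Benjamini-Hochberg over all of them, with a threshold of 0.05. The SE is the log2 change divided by the square root of the F value. No section was tested against D. The egg is a block because its sections come from 1 egg. Deviations from section means correlated by 0.264 to 0.743 within an egg and by -0.614 to 0.31 between different sections of different eggs. Alternatives were other scalings, filters, DESeq2 1.42.0, no block, a robust variance estimate and leaving out eggs or libraries.

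Transcripts were named as those with the highest and lowest ratio of D to the next section, the highest mean CPM, the share nearest its limit and the widest called change per comparison, at most 2 each. No molecular identifiers are stated, so counts are of reads and not of molecules.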

Additional observations from a re-analysis of the deposited data

Results flagged for a closer look

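The spike-in line was left out of the rule and of the transcripts tested, and was used only as an alternative scaling. It held 693 to 3407 counts per library. Its mean was 229 TMM-scaled CPM in section D, the highest of the 5 sections.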

How the results depend on the processing

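The number of transcripts that met the rule was 42. It was 27 with a mean of at least 10 CPM, 210 (of which 42 are those described) without a lower limit, 18 with a share in D of at least 0.30, 133 without a share limit, 0 with the spike-in, and 139 to 172 with an egg left out, where fewer eggs have to agree in rank. It was 40 to 54 with the other scalings and Trinity gene sums, but not with the same transcripts. Of the 42 described, 39 met the rule with DESeq2 size factors, 28 with total counts and 7 with the deposited factor. Of the 42, the highest mean lay in D for 1 with the spike-in and 25 with the deposited factor.

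E versus C called 6 of the 42, all higher in E, and 1 without the replicate block. It called 0 to 6 with an egg left out and 0 to 7 with a library left out. With the spike-in it called 1 and with the deposited factor 26, all of these higher in C. E versus A called 31, 18 with the spike-in and 22 without the block, all higher in E. With the deposited factor it called 22, of which 20 were higher in E and 2 in A. It called 27 to 31 with an egg left out and 29 to 32 with a library left out. B versus A called 0, 10 with the deposited factor, 0 with any egg left out, and 0 to 1 with a library left out, the 1 without section A of egg 10. The other settings, low-count filters, DESeq2 and the robust variance estimate included, kept each count within 1.5 times. The calls over all transcripts tested also changed with an egg left out. They went from 2855 to between 1023 and 2151 for E versus C. For E versus A they went from 10214 to between 6904 and 9321, and for B versus A from 980 to between 396 and 1031. Without the block they were 766, 5911 and 382 in these comparisons.

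The log2 ratio of D to the next section changed sign with the spike-in for trinitytrinLocDN52896c3g3t1 (-0.18), trinitytrinLocDN49660c0g1t1 (-0.16), trinitytrinLocDN29102c0g1t1 (-0.58), trinitytrinLocDN52025c0g2t3 (-0.16), trinitytrinLocDN55171c1g1t2 (-0.20) and trinitytrinLocGG_68582c0g2t1 (-0.41), and with the deposited factor for trinitytrinLocDN29102c0g1t1 (-0.23) and trinitytrinLocGG_68582c0g2t1 (-0.076). No log2 change of a named transcript between other sections reversed. Leaving out single libraries, the robust variance estimate and the section of the highest mean under other scalings were chosen after seeing the data. The cause of the other changes was not tested. Depth limits most the transcripts of low level, with 52 counts at the least in a section D library and 11 in a library of any section.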
